A study of Mus musculus with 8 samples.

Results

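Kruppel-like factors are zinc-finger transcription factors, and 8 of them are described here over 4 genotypes of newborn mouse skin: Klf2, Klf3, Klf4, Klf5, Klf6, Klf9, Klf10 and Klf15. Their members on the array are all probe sets whose annotation gives a single gene symbol that is one of these 8. That gave 20 probe sets of the 22626 tested, or 8 of the 12393 genes with a single-gene probe set. Klf9 had 7 probe sets, Klf3 and Klf6 had 3 each, Klf4 and Klf5 had 2 each, and Klf2, Klf10 and Klf15 had 1 each. The rule reads only the gene symbol, but the 8 genes were proposed with results of these same arrays known. Their values are therefore given as a description, and nothing is read from counts of members below a p threshold, which stand beside the share of all probe sets.

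RNA of whole skin from newborn mice of the FVB strain was hybridised to Affymetrix expression arrays, with 2 arrays per genotype and a pool of 3 mice on each. The groups were pRb+/+, pRb-/-;p107+/+ (pRb lost, p107 kept), pRb+/+;p107-/- (p107 lost, pRb kept) and pRb-/-;p107-/- (both lost). The last 3 are called skin lacking pRb alone, skin lacking p107 alone and skin lacking both. pRb and p107 are encoded by Rb1 and Rbl1 and bind E2F transcription factors, which drive entry into S phase. For pRb+/+ arrays no p107 genotype is labelled, and wild-type p107 was assumed. The series title speaks of epidermis that lacks pRb, and the sources used here do not give which cells carried the deletion, or the promoter or Cre behind it. The labels do not say whether the 2 arrays of a genotype came from separate pools, so the spread between them may be technical.

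The deleted genes were looked at first. Rb1 scored 1.21 and 1.07 on the pRb+/+ arrays, -0.22 and 0.36 on those lacking pRb alone, 0.02 and 0.4 on those lacking p107 alone and -1.56 and -1.28 on those lacking both. Rb1 was lowest in skin lacking both, but skin lacking pRb alone overlapped with skin lacking p107 alone. Rbl1, by the first of its 2 probe sets, scored 0.08 and 0.21, 1.3 and 1.14, -1.51 and -1.22, and -0.31 and 0.31 in the same order. It was lowest in skin lacking p107 alone, and skin lacking both overlapped with pRb+/+ skin. Whether these probe sets lie in the deleted parts is not known here, so directions below rest on the labels.

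The deposited value is a standardized score, called a z-score here: for each probe set the 8 scores average 0 and have an SD of 1. Differences are therefore in SDs of that probe set. No expression level and no fold change can be read from such scores, levels of different genes cannot be compared, and no score can exceed 2.47 in size. For the same reason the presence of skin markers could not be checked by level. In bulk skin, fewer cells that express a gene and less RNA of it per cell cannot be told apart.

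The family binds GC boxes and CACCC boxes in DNA through zinc fingers at the C-terminus, sites that it shares with the Sp factors, and its members activate or repress the genes they bind. In skin, Klf4 is known for its part in the late differentiation of keratinocytes and the formation of the epidermal barrier, and Klf5 for proliferating epithelial cells. Klf9 and Klf15 are known targets of the glucocorticoid receptor. Klf10 was first described as an early gene of TGF-beta signalling, and Klf2, Klf4, Klf6 and Klf10 can respond within minutes to growth factors or stress.

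The upstream sequence of 3 members is shown because CACCC and GGGCGG are the letters that Kruppel-like and Sp factors recognise, and the 3 genes hold many, several and almost none of them. Each run is the 250 bases before the annotated start of the gene, on the gene's own strand, from RefSeq on GRCm38.p6. Klf3 lies at chr5:64803271-64803520 on the plus strand, Klf4 at chr4:55532476-55532725 on the minus strand and Klf9 at chr19:23140976-23141225 on the plus strand. Capitals mark CACCC or GGGCGG on either strand, so that GGGTG and CCGCCC are capitals too, and neighbouring matches may overlap.
Klf3: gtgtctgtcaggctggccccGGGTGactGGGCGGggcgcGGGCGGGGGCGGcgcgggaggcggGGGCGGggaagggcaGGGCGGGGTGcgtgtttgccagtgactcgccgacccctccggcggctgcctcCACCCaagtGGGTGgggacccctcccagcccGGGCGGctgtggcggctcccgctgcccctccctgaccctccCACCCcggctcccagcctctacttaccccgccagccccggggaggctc
Klf4: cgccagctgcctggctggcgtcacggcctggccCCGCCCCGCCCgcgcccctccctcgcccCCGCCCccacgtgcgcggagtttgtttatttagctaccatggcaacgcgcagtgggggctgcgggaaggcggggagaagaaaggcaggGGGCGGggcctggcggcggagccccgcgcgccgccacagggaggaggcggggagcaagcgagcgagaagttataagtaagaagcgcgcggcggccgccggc
Klf9: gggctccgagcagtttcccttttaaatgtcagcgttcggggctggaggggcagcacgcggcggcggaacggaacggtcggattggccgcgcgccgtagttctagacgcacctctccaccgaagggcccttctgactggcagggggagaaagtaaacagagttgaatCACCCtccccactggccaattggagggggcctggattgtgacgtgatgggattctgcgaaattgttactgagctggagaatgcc
Klf3 held 6 matches to GGGCGG and 5 to CACCC, Klf4 held 4 to GGGCGG and 0 to CACCC, and Klf9 held 1 to CACCC and 0 to GGGCGG. GC content was 78.4% for Klf3, 74% for Klf4 and 59.6% for Klf9, against a median of 52.4% over all promoters in the table. Promoters of 6 of the 8 members were in the table, and Klf5 and Klf10 were not. GGGCGG was found in 5 of the 6 and in 32.7% of all 32851 promoters of the same length. CACCC was found in 4 of the 6 and in 52% of all promoters. The E2F-type letters TTTCCCGC and TTTGGCGC were found in 0 of the 6, against 0.895% and 0.417% of all promoters, and the cyclic AMP response element TGACGTCA in 0 of the 6 against 1.55%. A match describes the letters of this window and not a bound site.

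The scores of the members lay highest in skin that lacked both proteins. The mean score of the 20 probe sets was -0.56 and -0.4 for pRb+/+, 0.22 and 0.08 for skin lacking pRb alone, -0.44 and -0.53 for skin lacking p107 alone and 0.91 and 0.72 for skin lacking both. The arrays lacking both stood above the other 6, and those of pRb+/+ and skin lacking p107 alone overlapped. The 2 arrays lacking both proteins were the highest of the 8 for 10 of the 20 probe sets, from 6 genes: Klf3, Klf4, Klf5, Klf6, Klf9 and Klf15. Over all tested probe sets that order was found in 6.95%. Both pRb+/+ arrays were the lowest for 5 of the 20 against 10.3% of all probe sets, and both arrays lacking p107 alone for 5 of the 20 against 4.05%. Since the genes were proposed with these scores known, nothing is read from these shares.

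**Figure D1:**
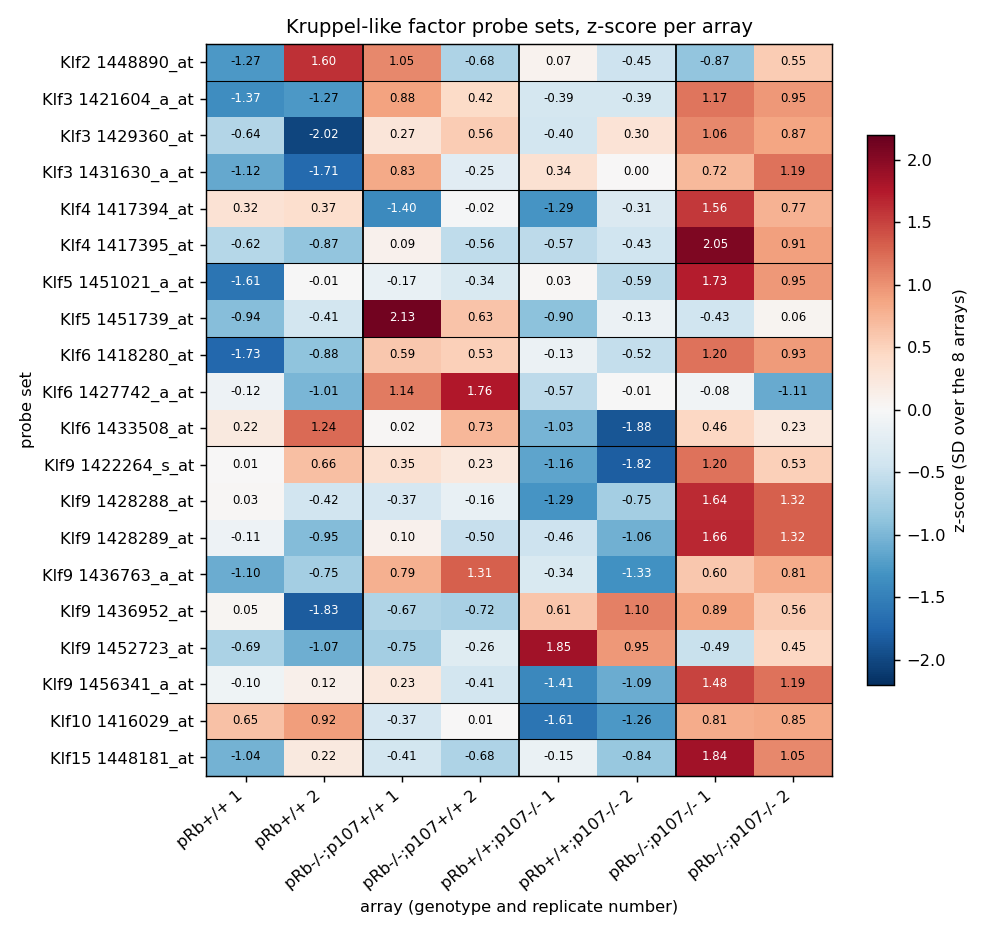
Z-score (SD over the 8 arrays) of each of the 20 member probe sets, rows grouped by gene, on each of the 8 arrays, columns grouped by genotype, with the score printed in each cell. The last 2 columns hold the highest scores for 10 of the 20 probe sets.

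Klf4 and Klf5 are the members best known from keratinocytes. The first Klf4 probe set, 1417394_at, scored 0.32 and 0.37 on the pRb+/+ arrays, -1.4 and -0.02 on those lacking pRb alone, -1.29 and -0.31 on those lacking p107 alone and 1.56 and 0.77 on those lacking both. It was thus lower where either protein alone was lost than in pRb+/+ skin, and highest where both were lost, with no overlap in any of these comparisons. The second, 1417395_at, scored -0.62 and -0.87, 0.09 and -0.56, -0.57 and -0.43, and 2.05 and 0.91 in the same order of genotypes. Both probe sets were highest in skin lacking both, but in the second the pRb+/+ arrays were the lowest of the 8, and the correlation between the 2 probe sets was 0.59 over the 8 arrays. The difference for p107 loss in pRb-/- skin was 1.88 ± 0.66 (SE of the linear model) in the first and 1.72 ± 0.47 in the second. For loss of both it was 0.82 ± 0.66 and 2.23 ± 0.47.

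The 2 Klf5 probe sets did not share a pattern, with a correlation of 0.04. 1451021_a_at scored -1.61 and -0.01 on the pRb+/+ arrays, -0.17 and -0.34 on those lacking pRb alone, 0.03 and -0.59 on those lacking p107 alone and 1.73 and 0.95 on those lacking both. It was highest where both proteins were lost, and the pRb+/+ arrays lay far from each other. 1451739_at scored -0.94 and -0.41, 2.13 and 0.63, -0.9 and -0.13, and -0.43 and 0.06, so that it was highest in skin lacking pRb alone. For p107 loss in pRb-/- skin its difference was -1.56 ± 0.65, against 1.6 ± 0.67 for the first probe set.

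Klf9 and Klf15 are the glucocorticoid-responsive members. Klf15 scored -1.04 and 0.22 on the pRb+/+ arrays, -0.41 and -0.68 on those lacking pRb alone, -0.15 and -0.84 on those lacking p107 alone and 1.84 and 1.05 on those lacking both. Only the arrays lacking both stood apart, and those of the other 3 genotypes overlapped. Loss of p107 went with a difference of -0.08 ± 0.59 where pRb was present and 1.99 ± 0.59 where it was absent. Klf15 takes part in the regulation of amino acid and glucose metabolism.

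Of the 7 Klf9 probe sets, 1428288_at, 1428289_at and 1456341_a_at scored highest of the 8 on the 2 arrays lacking both. 1428288_at scored 0.03 and -0.42 on the pRb+/+ arrays, -0.37 and -0.16 on those lacking pRb alone, -1.29 and -0.75 on those lacking p107 alone and 1.64 and 1.32 on those lacking both. 1456341_a_at scored -0.1 and 0.12, 0.23 and -0.41, -1.41 and -1.09, and 1.48 and 1.19. In both, the pRb+/+ arrays and those lacking pRb alone overlapped, the arrays lacking p107 alone were lowest and the arrays lacking both were highest. 1428289_at scored -0.11 and -0.95, 0.1 and -0.5, -0.46 and -1.06, and 1.66 and 1.32, with the first 3 genotypes overlapping. 1422264_s_at scored 0.01 and 0.66, 0.35 and 0.23, -1.16 and -1.82, and 1.2 and 0.53, lowest in skin lacking p107 alone.

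The remaining 3 Klf9 probe sets went other ways. 1436763_a_at scored -1.1 and -0.75, 0.79 and 1.31, -0.34 and -1.33, and 0.6 and 0.81, higher on the 4 arrays of pRb-/- skin than on the other 4. 1436952_at scored 0.05 and -1.83, -0.67 and -0.72, 0.61 and 1.1, and 0.89 and 0.56, higher on the 4 arrays of p107-/- skin. 1452723_at scored -0.69 and -1.07, -0.75 and -0.26, 1.85 and 0.95, and -0.49 and 0.45, highest in skin lacking p107 alone. Correlations between the 21 pairs of Klf9 probe sets ran from -0.75 to 0.94 with a median of 0.46, so the 7 probe sets do not give one account of the gene. Which transcripts or exons they probe was not analysed here.

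**Figure D2:**
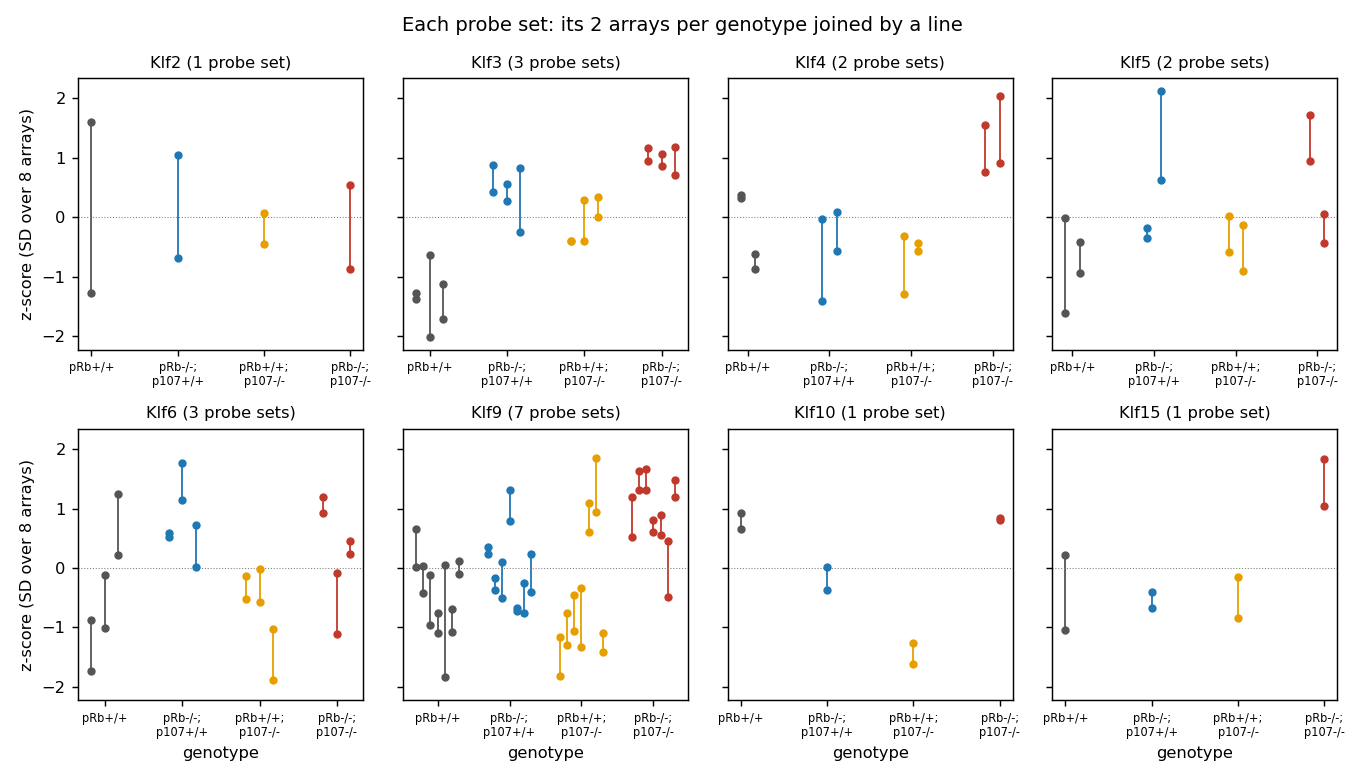
Z-scores (SD over the 8 arrays) by genotype for each of the 8 genes, with 1 point per array and a line joining the 2 arrays of a genotype for each probe set. Klf10 shows short lines, with skin lacking p107 alone lowest, Klf15 parts skin lacking both from the rest, Klf2 shows long overlapping lines, and the probe sets of Klf5, Klf6 and Klf9 differ among themselves.

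Klf10 and Klf6 stand among the members that respond early to signals. Klf10, whose product restrains proliferation, scored 0.65 and 0.92 on the pRb+/+ arrays, -0.37 and 0.01 on those lacking pRb alone, -1.61 and -1.26 on those lacking p107 alone and 0.81 and 0.85 on those lacking both. Its scores were lowest in skin lacking p107 alone and next lowest in skin lacking pRb alone, while those of skin lacking both fell between the 2 pRb+/+ arrays. The difference was -2.23 ± 0.21 for p107 loss in pRb+/+ skin, 1.01 ± 0.21 for p107 loss in pRb-/- skin and 0.05 ± 0.21 for loss of both.

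The 3 Klf6 probe sets correlated weakly, at 0.05 to 0.23. Klf6 is induced by injury and stress and acts on the cell cycle. 1418280_at scored -1.73 and -0.88 on the pRb+/+ arrays, 0.59 and 0.53 on those lacking pRb alone, -0.13 and -0.52 on those lacking p107 alone and 1.2 and 0.93 on those lacking both. The 4 genotypes did not overlap and ran upward from pRb+/+ through loss of p107 alone and loss of pRb alone to loss of both. 1427742_a_at was highest in skin lacking pRb alone, at 1.14 and 1.76, against -1.11 to -0.01 on the other 6 arrays. 1433508_at was lowest in skin lacking p107 alone, at -1.03 and -1.88, against 0.02 to 1.24 on the others.

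Klf3, a repressor that recruits the CtBP co-repressors, had 3 probe sets that moved alike, with correlations of 0.85 to 0.88. 1421604_a_at scored -1.37 and -1.27 on the pRb+/+ arrays, 0.88 and 0.42 on those lacking pRb alone, -0.39 and -0.39 on those lacking p107 alone and 1.17 and 0.95 on those lacking both. 1429360_at scored -0.64 and -2.02, 0.27 and 0.56, -0.4 and 0.3, and 1.06 and 0.87. 1431630_a_at scored -1.12 and -1.71, 0.83 and -0.25, 0.34 and 0, and 0.72 and 1.19. In all 3 the pRb+/+ arrays were the lowest of the 8. In the first the 4 genotypes did not overlap, and in the other two the arrays lacking pRb alone and p107 alone overlapped. The difference for loss of both was 2.38 ± 0.18, 2.3 ± 0.56 and 2.37 ± 0.48.

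Klf2, known from endothelial cells and resting lymphocytes, showed no order by genotype. It scored -1.27 and 1.6 on the pRb+/+ arrays, 1.05 and -0.68 on those lacking pRb alone, 0.07 and -0.45 on those lacking p107 alone and -0.87 and 0.55 on those lacking both. All 4 genotypes overlapped, and the 5 differences between genotypes and their interaction were between -0.35 and 0.03. The standard error was 1.3 for each pair of genotypes and 1.84 for the interaction. Endothelial markers, averaged over 10 of 10 listed genes, scored -0.65 and 0.1, 0.5 and -0.12, 0.29 and 0.02, and -0.01 and -0.12, and their part in the Klf2 scores was not tested.

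The study compared the 4 genotypes with one another. One linear model, with a mean for each genotype, was fitted to the 22626 probe sets with limma, and p-values were adjusted over all of them, with a threshold of 0.05. In loss of both, 14 of the 20 member probe sets were higher in skin lacking both than in pRb+/+ skin without overlap, against 28.5% of all. Lower without overlap were 0 of the 20, against 26.9% of all. The median difference of the members was 1.62, against 0.1 over all probe sets. Only 1 of the 20, Klf3 1421604_a_at, passed the threshold there, where 2.94% of all probe sets passed, and 11 of the 20 had an unadjusted p below 0.05, against 22.3% of all. That 1 probe set did not pass with limma's moderated test or with only the 4 arrays compared. Those fits called 0 and 1 of all 22626 probe sets for loss of both, against 666 in the main fit. Their result therefore says little about this probe set. Leaving out a single array leaves 1 array in a genotype, so only the size is given. The difference then stayed between 2.27 and 2.49.

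Loss of p107 in pRb-/- skin had 13 of the 20 higher without overlap, against 22.9% of all probe sets, with a median of 0.62 against -0.1. It had 2 of the 20 lower without overlap, 1 probe set each of Klf5 and Klf6, against 28.2% of all. The model called 0 of the 20 and 1.37% of all probe sets, and 8 of the 20 had an unadjusted p below 0.05, against 19.2% of all. Loss of pRb in p107-/- skin had 15 of the 20 higher without overlap, against 17.2% of all probe sets, with a median of 1.58 against -0.33. It had 1 lower without overlap, Klf9 1452723_at, against 33.7% of all. There the model called 0 of the 20 and 0.256% of all, with 13 of the 20 and 12% of all at an unadjusted p below 0.05. Both comparisons use the arrays lacking both, as does loss of both, so the 3 are not independent.

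Where 1 protein was lost alone, the members had no common direction. For loss of pRb with p107 kept the median was 0.35 against 0.12 over all probe sets, and the model called 0 of the 20 and 0% of all. Differences were above 0 for 13 of 20, against 53.7% of all. Without overlap, 8 were higher (23% of all) and 2 lower (17.4% of all). For loss of p107 in pRb+/+ skin the median was 0.13 against 0.35, and the model called 0 of the 20 and 0.42% of all. Differences were above 0 for 11 of 20, against 58.8% of all. Without overlap, 7 were higher (35.2% of all) and 6 lower (22.1% of all). At an unadjusted p below 0.05 the members numbered 8 and 9, against 13.4% and 19.4% of all probe sets. The F test over the 4 genotypes called 0 of the 20 and 1.28% of all, with 12 of the 20 and 21.4% of all at an unadjusted p below 0.05.

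Loss of p107 had opposite directions with and without pRb in part of the members. For 5 of the 20 probe sets the p107-/- arrays were below the p107+/+ arrays without overlap where pRb was present, and above them without overlap where pRb was absent. These were 1 probe set of Klf4, 1 of Klf10 and 3 of Klf9 (1422264_s_at, 1428288_at and 1456341_a_at), and 2.56% of all probe sets had that order. The reverse order was found for 0 of the 20 and for 5.78% of all. The change of the p107 difference with pRb status, which is the interaction of the model, was 3.24 ± 0.29 for Klf10, 3.02 ± 0.94 for Klf4 1417394_at and 2.4 ± 0.58 to 2.67 ± 0.4 for the 3 Klf9 probe sets. The model called 0 of the 20 and 0% of all 22626 probe sets for the interaction, and 8 of the 20 had an unadjusted p below 0.05, against 13.1% of all. The comparisons with and without pRb use separate arrays.

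**Figure D3:**
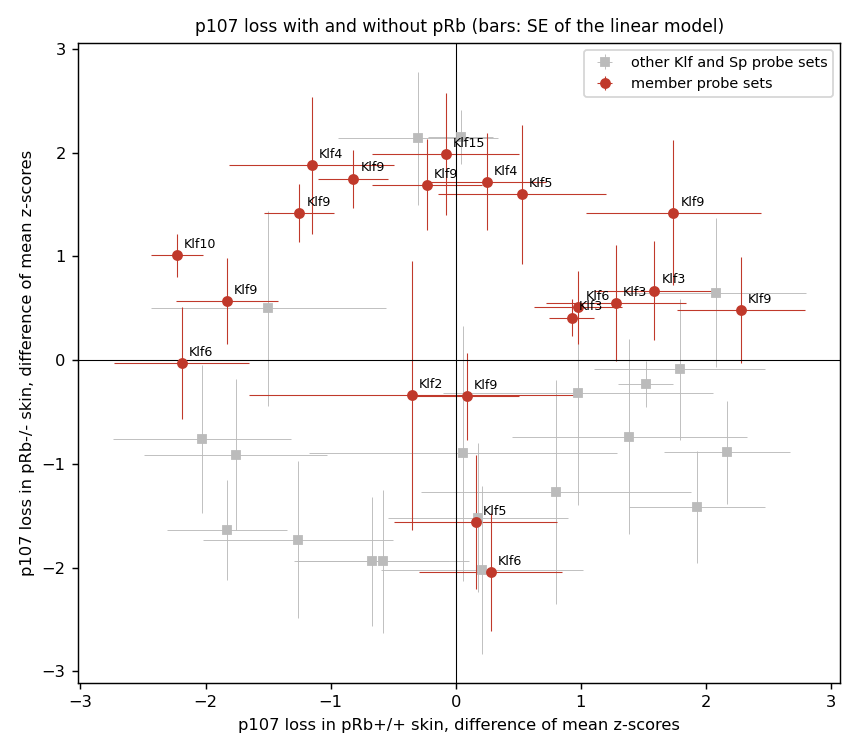
Difference of mean z-scores (SD units) for p107 loss in pRb+/+ skin on the horizontal axis and in pRb-/- skin on the vertical axis, for the 20 member probe sets (red circles) and the 20 probe sets of other Klf and Sp genes (grey squares). Bars are standard errors of the linear model, and the upper left region, with differences below 0 and then above 0, holds 7 member probe sets (1 each of Klf4, Klf10 and Klf15, and 4 of Klf9) and 2 of the relatives.

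Relatives of the members that bind similar DNA were tested with the same model. Of 18 other Klf and Sp genes listed, 12 were measured, by 20 probe sets, and Klf8, Klf11, Klf14, Sp2, Sp8 and Sp9 were not analysed here. With 1 probe set per gene, 0 of the 12 passed in any comparison by limma's unmoderated or moderated test, and 6 had an unadjusted p below 0.05 in at least 1 of the 6, as did 37.7% of all genes. Their median difference for p107 loss in pRb-/- skin was -0.89, against -0.05 over all genes, and for loss of both it was 0 against 0.14. For p107 loss in pRb-/- skin 9 of 12 were below 0, where 47.3% of all probe sets were above 0. The 2 arrays lacking both proteins were the highest of the 8 for 1 of these 20 probe sets, or 5%, near the 6.95% of all probe sets. The smallest adjusted p was that of Klf13 for p107 loss in pRb-/- skin, with a difference of 2.15 ± 0.26 (limma, adjusted p = 0.0602).

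Single genes of this list had large differences that did not pass. For loss of both, Sp3 had a difference of 1.84 ± 0.68 and Klf1, the erythroid member, 1.08 ± 0.72. Klf7 had -1.7 ± 0.76. Sp1, the widely expressed GC-box factor, had -1.74 ± 0.48 by 1418180_at (limma, adjusted p = 0.156). Its other probe set, 1448994_at, scored -1.6 and -1.41 on the pRb+/+ arrays, 0.94 and 0.78 on those lacking pRb alone, -0.06 and 0.09 on those lacking p107 alone and 0.91 and 0.35 on those lacking both. By that probe set Sp1 rose for loss of both, by 2.14 ± 0.22 (limma, adjusted p = 0.0393), so the 2 probe sets gave opposite signs.

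Genes that act with, upstream or downstream of the members were compared as lists, with 1 probe set per gene. Beside the list counts, the unmoderated fit called 2.94% of all probe sets for loss of both and 1.37% for p107 loss in pRb-/- skin. It called 0.256% for pRb loss in p107-/- skin and 0.42% for p107 loss in pRb+/+ skin. With limma's moderated test, with only the compared arrays, or without any single array that lacked p107 alone or lacked both, 0 genes passed in any list. Without either pRb+/+ array, 1 barrier gene passed and 0 of the other lists. Without either array lacking pRb alone, 1 glucocorticoid, 2 immediate early, 2 barrier, 1 Klf2-linked and 1 cell cycle gene passed. With array medians subtracted, as with quantile normalization, 1 glucocorticoid gene, 1 gene of fat cell differentiation and 0 Rb family genes passed, and with the latter 3 barrier genes did. Of 14 measured cofactors and ubiquitin ligases, 0 passed in any comparison, and 7 had an unadjusted p below 0.05 in at least 1 of the 6, against 37.7% of all genes. Kat2b, a histone acetyltransferase, came closest for loss of both, at 2.52 ± 0.32 (limma, adjusted p = 0.0501), and Usp3 had 2.18 ± 0.36. Ctbp2, one of the co-repressors that Klf3 recruits, had -2.21 ± 0.65 and Hdac2 -2.11 ± 0.78. Neither passed.

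Of 10 genes of the ERK5 and MEF2 pathway, which drives Klf2 and Klf4 transcription in endothelium, Map3k3 rose for loss of both. It scored -1.76 and -1.32 on the pRb+/+ arrays, 0.39 and 0.24 on those lacking pRb alone, 0.61 and 0.07 on those lacking p107 alone and 0.82 and 0.95 on those lacking both, a difference of 2.42 ± 0.26 (limma, adjusted p = 0.0393). The arrays lacking both were highest and the pRb+/+ arrays lowest. The other 9 did not pass in any comparison, and the list's median for loss of both was 0.7 against 0.14. Of 11 genes of TGF-beta signalling, which induces Klf10, 0 passed in any comparison, 6 had an unadjusted p below 0.05 in at least 1 (37.7% of all genes), and the median for loss of both was -0.22. Smad2 had 2.41 ± 0.5 and Tgfbr1 1.83 ± 0.69, whereas Smad7 had -1.92 ± 0.88 and Tgfb3 -1.9 ± 0.68. Of the 3 probe sets of Tgfbr1, 1 had the opposite sign for loss of both.

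Of 12 measured genes of the glucocorticoid response, to which Klf9 and Klf15 belong, 3 rose for loss of both and 0 fell. The share of all probe sets called there was 2.94%. The median was 1.48 against 0.14. Differences were above 0 for 8 of the 12 and below 0 for 4, where 52.3% of all probe sets were above 0. An unadjusted p below 0.05 in at least 1 comparison was found for 8 of the 12, against 37.7% of all genes. Tsc22d3, a glucocorticoid-induced leucine zipper protein, scored -0.24 and -0.04 on the pRb+/+ arrays, -0.58 and -0.39 on those lacking pRb alone, -0.9 and -0.94 on those lacking p107 alone and 1.52 and 1.56 on those lacking both. It rose for loss of both by 1.68 ± 0.1 in SDs (limma, adjusted p = 0.0181), for p107 loss in pRb-/- skin by 2.03 (adjusted p = 0.0228) and for pRb loss in p107-/- skin by 2.46 (adjusted p = 0.0332). Fkbp5, a co-chaperone of the glucocorticoid receptor, rose for loss of both by 1.99 ± 0.21 (limma, adjusted p = 0.0394), and Cebpd, a transcription factor, by 1.73 ± 0.19 (limma, adjusted p = 0.0417). Both also rose for p107 loss in pRb-/- skin, by 2.29 and 2.05 (limma, adjusted p = 0.0429 for each). The other 9 genes did not pass in any comparison, and Cebpd had another probe set of opposite sign for loss of both.

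Immediate early genes, induced quickly by the signals that induce several members, were measured by 21 genes. For loss of both, 2 rose and 0 fell, where 2.94% of all probe sets were called. The median was 1.46 against 0.14, and 16 of 21 differences were above 0, where 52.3% of all probe sets were. An unadjusted p below 0.05 in at least 1 comparison was found for 18 of the 21, against 37.7% of all genes. Ier3, a stress response gene, scored -0.68 and -0.73 on the pRb+/+ arrays, -0.45 and -0.4 on those lacking pRb alone, -0.42 and -0.53 on those lacking p107 alone and 1.69 and 1.52 on those lacking both, and rose by 2.31 ± 0.08 (limma, adjusted p = 0.00983). Dusp1, a phosphatase that switches off MAP kinases, rose by 2.19 ± 0.18 (limma, adjusted p = 0.0267). Both rose for p107 loss in pRb-/- skin too, by 2.03 (limma, adjusted p = 0.0188) and 1.98 (limma, adjusted p = 0.0429), and Ier3 for pRb loss in p107-/- skin, by 2.08 (limma, adjusted p = 0.0332). For p107 loss in pRb+/+ skin 15 of 21 differences were below 0, where 58.8% of all probe sets were above 0. The median was -0.42 against 0.4, and 0 passed. The list's mean score was -0.24 and -0.11 on the pRb+/+ arrays, 0.13 and 0.05 on those lacking pRb alone, -0.7 and -0.55 on those lacking p107 alone and 0.79 and 0.62 on those lacking both. That is the same order of genotypes at the top and bottom as in the first Klf9 probe set described.

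Of 18 measured barrier and cornified envelope genes, made by the differentiating keratinocytes in which Klf4 acts, 6 rose and 0 fell for loss of both. The share of all probe sets called there was 2.94%. The median was 1.77 against 0.14, and 17 of 18 differences were above 0, where 52.3% of all probe sets were. An unadjusted p below 0.05 in at least 1 comparison was found for 14 of the 18, against 37.7% of all genes. Sprr2d, a small proline-rich cornified envelope protein, scored -0.88 and -0.99 on the pRb+/+ arrays, -0.15 and -0.09 on those lacking pRb alone, -0.54 and -0.43 on those lacking p107 alone and 1.57 and 1.5 on those lacking both. It rose by 2.48 ± 0.06 (limma, adjusted p = 0.00889). Its relatives Sprr1b and Sprr2h rose by 2.42 ± 0.19 and 2.29 ± 0.13 (limma, adjusted p = 0.0236 and 0.0172). The tight junction gene Cldn4 rose by 2.44 ± 0.29, the lipoxygenase gene Aloxe3 by 2.41 ± 0.3 and the cornified envelope gene Rptn by 1.64 ± 0.19 (limma, adjusted p = 0.0456, 0.0478 and 0.043). Rptn had another probe set of opposite sign. Sprr2h and Sprr2d also rose for p107 loss in pRb-/- skin, by 1.79 and 1.66, and for pRb loss in p107-/- skin, by 2.23 and 2.02 (limma, adjusted p from 0.0188 to 0.0457).

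Genes of fat cell differentiation and of Klf15 metabolism had no common direction. Of 15 measured, 2 fell for p107 loss in pRb-/- skin: Adipoq, which encodes adiponectin, and Pck1, a gluconeogenic enzyme, each with a difference of -2.54 (limma, adjusted p = 0.0313 and 0.0429). For loss of both, 0 of 15 passed, 6 had an unadjusted p below 0.05 (20.7% of all genes), and the median was -0.02 against 0.14. Adipocyte markers, 7 of 9 listed, had mean scores of -0.19 and -0.53 on the pRb+/+ arrays, 0.99 and 0.69 on those lacking pRb alone, 0.34 and 0.07 on those lacking p107 alone and -0.63 and -0.74 on those lacking both. The means were lowest where Klf15 was highest, but the markers differed among themselves. For loss of both, 3 of the 7 had differences above 0, where 52.3% of all probe sets did. Their part in the Klf15 scores was not tested. Of 8 genes tied to Klf2 in endothelium and lymphocytes, Tek, an endothelial receptor, fell by 2.3 on the z scale for loss of both (limma, adjusted p = 0.0377), and 7 did not pass in any comparison.

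Of 10 cell cycle genes tied to Klf4, Klf5, Klf6 and Klf10, the cyclin genes Ccna2 and Ccnd1 fell. The list had no common direction for loss of both, with 5 differences above 0 and 5 below. Its median there was 0.29 against 0.14 over all genes, and 52.3% of all probe sets were above 0. Another cyclin gene, Ccne1, had a difference of 2.21 ± 0.29 for loss of both, which did not pass (limma, adjusted p = 0.0527). Ccna2 scored 0.9 and 0.96 on the pRb+/+ arrays, 1.08 and 0.78 on those lacking pRb alone, -1.07 and -0.97 on those lacking p107 alone and -0.76 and -0.91 on those lacking both. It was lower on the 4 p107-/- arrays than on the other 4, with differences of -1.95 in pRb+/+ skin and -1.77 in pRb-/- skin (limma, adjusted p = 0.0446 and 0.0301), and another probe set of it had an opposite sign for loss of both. Ccnd1 had -2.09 for p107 loss in pRb-/- skin and -2.18 for loss of both (limma, adjusted p = 0.0411 and 0.0271). Cdkn1a, the CDK inhibitor gene that Klf4 activates, had a difference of 1.54 ± 0.34 for loss of both, which did not pass (limma, adjusted p = 0.111). Of the 10 Rb family and E2F genes, Rb1 fell for loss of both, with a difference of -2.56 ± 0.27 (limma, adjusted p = 0.0391), and the others did not pass in any comparison. The list's median for loss of both was 1.25 against 0.14 over all genes. Differences there were above 0 for 7 of the 10, where 52.3% of all probe sets were.

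**Figure D4:**
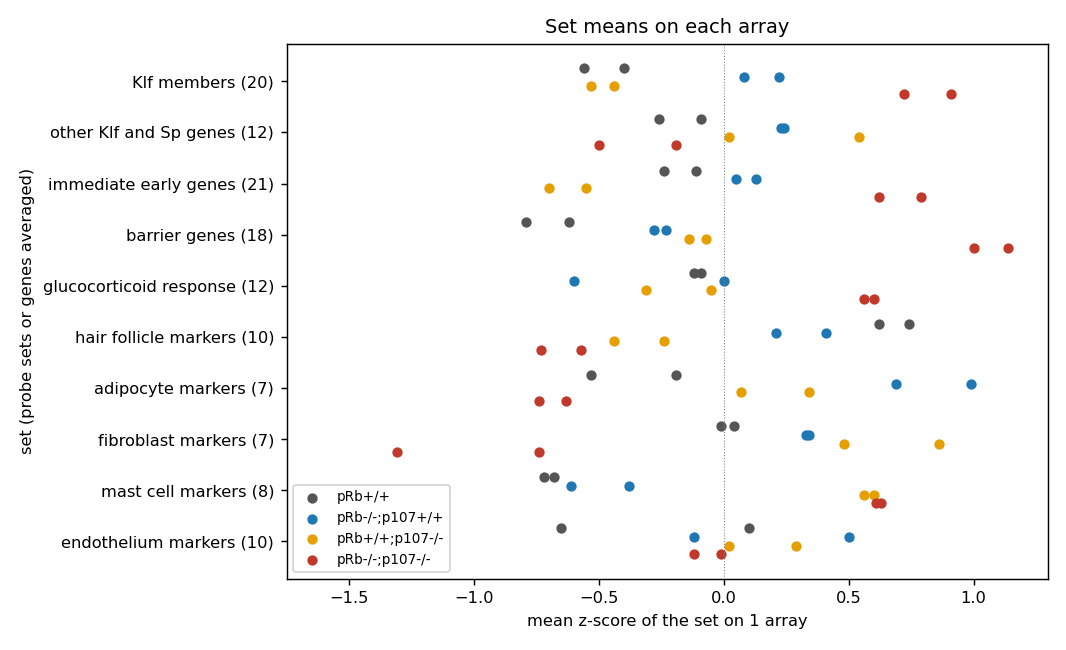
Mean z-score (horizontal axis, SD units) of sets of probe sets or genes on each of the 8 arrays, coloured by genotype, with the number averaged in parentheses. The members, immediate early, barrier and glucocorticoid lists have their highest means on the 2 arrays lacking both, while the adipocyte and fibroblast markers have their lowest there.

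Markers of some other skin compartments also parted by genotype, and their part in the members' scores was not tested. Fibroblast markers, 7 of 8 listed, had means of -0.74 and -1.31 on the arrays lacking both against -0.01 to 0.86 on the other 6, and 0 of 7 were higher in p107-/- than in p107+/+ skin where pRb was absent. Hair follicle markers, 10 of 10, had 0.74 and 0.62 on the pRb+/+ arrays and -0.57 and -0.73 on those lacking both. Mast cell markers, 8 of 8, had 0.61 and 0.63 on those lacking both and 0.6 and 0.56 on those lacking p107 alone, against -0.72 to -0.38 on the other 4 arrays. Basal keratinocyte markers, 8 of 8, had 0.58 and 0.08 on those lacking both and -0.73 and 0.18 on the pRb+/+ arrays, which overlapped. They had 0.66 and 0.34 on those lacking p107 alone and -0.47 and -0.65 on those lacking pRb alone. The spiked poly-A controls of the array, 24 probe sets, had 1.38 and 1.13 on those lacking pRb alone and -0.91 and -0.96 on those lacking both, and the median score of all probe sets ran from -0.25 to 0.22 over the arrays. Whether a score of 0 means absence cannot be read from standardized values.

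Genes with the profile most like each member over the 8 arrays were found by Pearson correlation, as a description. Each r shares the same 8 arrays with the search over all genes. For the probe set that stands for each gene, the 2 closest were Il13ra2 and Plekhf2 for Klf2, Gm2a and Map2k3 for Klf3, Lgalsl and Nebl for Klf4, and Ttyh2 and Pgk2 for Klf5. They were Thbs1 and Bdh1 for Klf6, Myzap and Cebpd for Klf9, Hk2 and Pigf for Klf10, and Ypel3 and Paxip1 for Klf15. These correlations ran from 0.951 to 0.989. Cebpd, at 0.972 with Klf9 1428288_at, is also on the glucocorticoid list, and Ivl, a barrier gene, was the second closest to Klf5 1451021_a_at, at 0.965. Hopx was closest to Klf9 1456341_a_at, at 0.996. The 2 closest to Klf3 1421604_a_at, the member probe set called for loss of both, were Pcna at 0.976 and Wdhd1 at 0.972.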

How the data were processed

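Scores were available for 22690 probe sets on 8 arrays, 2 for each of 4 genotypes, grouped by the sample titles. The deposited values are standardized scores of mean 0 and SD 1 per probe set. RMA was used per the submitters' processing notes, with no version given. No label records the standardization or says if log or linear values went into it, so signal over background is unknown. The 64 array controls were left out of the tests.

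Gene names came from the platform annotation: 20380 had 1 symbol, 691 several and 1555 none. A list gene is represented by 1 probe set, taken by name ending (_at, then _a_at, _s_at, _x_at) and lowest number, without its values. limma 3.58.1 in R 4.3.3 fitted a mean per genotype to each of the other 22626 probe sets, without moderation of the variances, which standardization would distort, with 4 residual degrees of freedom and Benjamini-Hochberg adjustment at 0.05. On simulated data for loss of both over 22626 probe sets with 200 changed, it recovered 2% of those shifted by 4 noise SD, 24% at 8, 80% at 16 and 100% at 32. With 4000 changed, it recovered 42.1%, 94.9%, 100% and 100% at those sizes. The number of arrays limits the precision.

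The members and the 11 gene lists were chosen with earlier results of these data known. All member probe sets are named. Of each list, every called gene (at most 6) or else the 2 largest differences in each direction for loss of both are named. Cdkn1a, Ccne1, Klf13, Ivl, Hopx, Pcna, Wdhd1 and the Sp1 probe set 1448994_at were singled out after their values were seen. Likeness, given for the representative probe set of each member, is Pearson's r with those of all other genes. Alternatives were the moderated test, array medians subtracted, quantile normalization, only the arrays compared, a replicate block, leaving out each array, and any probe set of a gene.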

Additional observations from a re-analysis of the deposited data

Results flagged for a closer look

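For 5 member probe sets, both arrays of p107-/- skin moved one way where pRb was present and the opposite way where it was absent. Klf10 1416029_at had the largest change of the p107 difference with pRb status, 3.24 ± 0.29 (SE), and also changed direction for pRb loss between p107 statuses. Klf4 1417394_at did the same with 3.02 ± 0.94. Klf9 1456341_a_at had 2.67 ± 0.4, Klf9 1428288_at 2.57 ± 0.4 and Klf9 1422264_s_at 2.4 ± 0.58, each for p107 loss alone. The 3 Klf9 probe sets share a gene and are not separate evidence. These orders come from 2 arrays per genotype, and limma's unmoderated interaction test called 0 of the 22626 probe sets, with 2964 at an unadjusted p below 0.05.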

How the results depend on the processing

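The count of member probe sets called for loss of both, 1, became 0 with limma's moderated test, with only the arrays of the genotypes compared and with the replicate block, 2 with array medians subtracted, and 0 to 1 when single arrays were left out. With quantile normalization 2 members were called for pRb loss in p107-/- skin, and the F test called 1 with medians subtracted and 1 with quantile normalization. For these, calls over all probe sets were not counted, so nothing is read from them. The difference of Klf3 1421604_a_at stayed between 2.23 and 2.49. For the gene lists called, the moderated test and the fit to the compared arrays alone gave 0 genes in every list. Those fits called 0 and 1 of all probe sets for loss of both and the replicate block 37, against 666 in the main fit. A 0 there therefore says little about a list or about the members. The replicate block gave 1 immediate early gene, 1 barrier gene and 0 in the other lists. Leaving out single arrays gave 0 to 1 glucocorticoid genes, 0 to 2 immediate early genes, 0 to 2 barrier genes, 0 to 1 Klf2-linked genes, 0 to 1 cell cycle genes and 0 of the ERK5, adipogenesis and Rb family genes. Medians subtracted gave 1 glucocorticoid gene, 1 adipogenesis gene and 0 Rb family genes, and quantile normalization gave the same counts there and 3 barrier genes. Counting any probe set gave 1 other Klf or Sp gene, 2 ERK5 genes, 1 TGF-beta gene and 2 Klf2-linked genes. The fits without an array and with only the compared arrays use fewer arrays, and the block adds a term, so each leaves fewer residual degrees of freedom; the cause of the other changes was not tested.

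The count of 10 probe sets highest in pRb-/-;p107-/- skin became 11 with medians subtracted and 12 with quantile normalization, and the count of 5 with opposite p107 differences stayed 5 in both (alternatives chosen after seeing the data). Of the 120 member differences, 9 changed sign with medians subtracted, 11 with quantile normalization, 0 with the replicate block and 2 to 13 when an array was left out, and none of these was a called one. Deviations of same-numbered arrays correlated at -0.131 to 0.105, so the numbers do not pair the arrays. With 2 arrays per genotype and 4 residual degrees of freedom, a p above the threshold does not show that a gene did not differ.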
